A study of Mus musculus with 4 samples.

Results

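Wapal sites in promoters were the regions bound by tagged Wapal in mouse embryonic stem cells (ESCs) whose centre lay within 2000 bp, on either side, of an annotated transcription start site (TSS). They numbered 824 of 8323 Wapal sites, or 9.90% (95% Wilson interval 9.28 to 10.6%). A site was a called region that shared no base with any region of the control line, and TSSs were the 5′ ends of all GENCODE M1 transcripts on mm9. The study used 4 samples: 2 independently derived ESC clones with a biotinylatable, Flag-tagged Wapal (FB Wapal), 1 line with the BirA ligase alone, and 1 input of sheared, unselected chromatin. BirA attaches biotin to the tag, so that chromatin could be pulled down with streptavidin, and the FB Wapal clones carried BirA as well. The ESCs of the study were derived from 129SVJ mice and adapted to gelatin. The tagged protein was a stably expressed transgene, which limits the clones as a model of the endogenous protein. Both clones were represented by 1 joint list of regions, so the spread between them could not be measured, and intervals cover counting error only.

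Cohesin is a ring of Smc1a, Smc3, Rad21 and a Stag subunit that holds DNA strands together and takes part in the loops that join distal elements to promoters. Wapal is the factor that opens the ring and releases cohesin from chromatin, and the zinc finger protein CTCF marks many of the places where cohesin is found. CTCF binds a long motif, and the 12 central bases of that motif, here called the CTCF core motif, were searched on both strands of each site.

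The sites with an exact core motif among the 15 highest scores are shown first because the motif was the most common sequence feature of the promoter sites. The motif is in capitals and is read along its own strand on mm9. The Pdzd9 sequence is chr7:127813842-127813871, plus strand. The Gm12756 sequence is chr7:35457099-35457158, minus strand. The Ccdc110 sequence is chr8:47020281-47020340, minus strand. The Mtus1 sequence is chr8:42129046-42129105, minus strand. The Nek10 sequence is chr14:15696399-15696458, plus strand. The Sost sequence is chr11:101830332-101830391, minus strand.
Pdzd9: ttcgaatggCCACCAGGGGGCgctgcaagg
Gm12756: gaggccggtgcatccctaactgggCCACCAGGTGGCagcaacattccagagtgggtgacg
Ccdc110: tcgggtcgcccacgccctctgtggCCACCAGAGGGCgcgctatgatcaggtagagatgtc
Mtus1: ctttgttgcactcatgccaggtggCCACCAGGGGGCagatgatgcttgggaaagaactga
Nek10: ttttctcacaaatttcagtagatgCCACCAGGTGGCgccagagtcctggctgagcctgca
Sost: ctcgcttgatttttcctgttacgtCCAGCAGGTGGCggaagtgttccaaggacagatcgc

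Another 3 sites with an exact motif were chosen after their values were seen, because they lay at genes that the results below turn on. The Sox2 sequence is chr3:34546785-34546844, plus strand. The Eif3f sequence is chr7:116077642-116077701, minus strand. The Mir449c sequence is chr13:113826308-113826337, minus strand.
Sox2: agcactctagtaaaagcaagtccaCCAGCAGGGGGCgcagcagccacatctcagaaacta
Eif3f: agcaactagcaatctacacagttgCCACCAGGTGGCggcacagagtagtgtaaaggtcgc
Mir449c: cctccttatCCACCAGATGGCactatttcc

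The 2 highest-scoring sites without a match at 2 or fewer mismatches were at Aim2 and Pgk1. Gins4, the highest-scoring CpG-rich site at a TSS without the core motif, was added after its value was seen. The bases just before each TSS are given along the gene, with CpG pairs in capitals, to show the starts of genes whose sites had no core motif. At Pgk1 and Gins4 these bases are part of the site. At Aim2 they lie outside it, since the centre of that site was 1070.5 bp downstream of the TSS. The Aim2 sequence is chr1:175385589-175385618, plus strand. The Pgk1 sequence is chrX:103382379-103382438, plus strand. The Gins4 sequence is chr8:24348141-24348200, minus strand.
Aim2: tgccaggagcacactCGaCGtggcagatag
Pgk1: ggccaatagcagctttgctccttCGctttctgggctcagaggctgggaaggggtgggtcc
Gins4: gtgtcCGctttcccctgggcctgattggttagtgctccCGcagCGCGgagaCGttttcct

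The joint list held 8497 regions, of which 174 shared bases with one of the 266 regions of the BirA line and were removed. Of those 174, 85 (48.9%) were centred within 2000 bp of a TSS, and 35 of the 85 had a histone gene as the nearest gene. The removed promoter regions were high and wide, with a median score of 121.51 and a median width of 1408 bp. Among the 824 sites that stayed, 3 lay within 1 kb of a BirA region, 8 within 10 kb and 38 within 100 kb. The lists gave no read counts, so the depth behind a single site was unknown.

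Promoter sites lay more often before the TSS than after it. The centre was upstream in 466 sites (56.6%, interval 53.1 to 59.9%) and downstream in 358. Of all sequenced bases within 2000 bp of a TSS, 48.9% lay upstream of the nearest one. The median distance from centre to TSS was 850 bp (interval 753.5 to 925.5 bp), with quartiles at 246 and 1463 bp. The TSS itself lay inside the site in 314 cases (38.1%). By the annotation of the centre, 151 sites were in an exon, 375 in an intron and 298 outside genes.

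**Figure D1:**
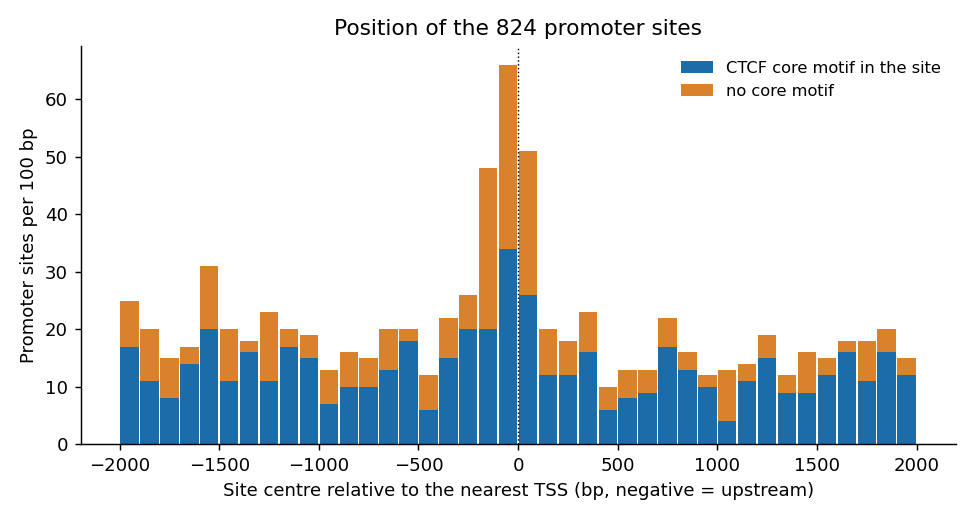
Number of promoter sites per 100 bp by position of the site's centre relative to its nearest TSS, split by whether the site held the CTCF core motif (1 mismatch allowed). The counts rise around the TSS, and the sites without the motif are most numerous there: 118 sites had their centre within 100 bp.

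Density was measured as sites per Mb of sequence at each distance from a TSS, so that the different amounts of sequence were taken into account. Within 100 bp of a TSS there were 8.85 sites per Mb, against 4.09 from 100 to 500 bp, 3.25 from 500 to 1000 bp and 4.10 from 1000 to 2000 bp. The density over the whole sequence was 3.26 per Mb, and that from 2000 to 5000 bp, outside the promoters, was 4.15. The peak was therefore narrow, and the outer part of the promoter window held sites about as densely as the sequence just beyond it. Much of the peak was made up of sites without the core motif, which reached 4.35 per Mb within 100 bp and fell to 0.914 per Mb from 500 to 1000 bp. Sites with the motif went from 4.50 to 2.33 per Mb over the same bands. Leaving out the 13 sites near protocadherin genes within 100 bp brought the density there to 7.88 per Mb.

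**Figure D2:**
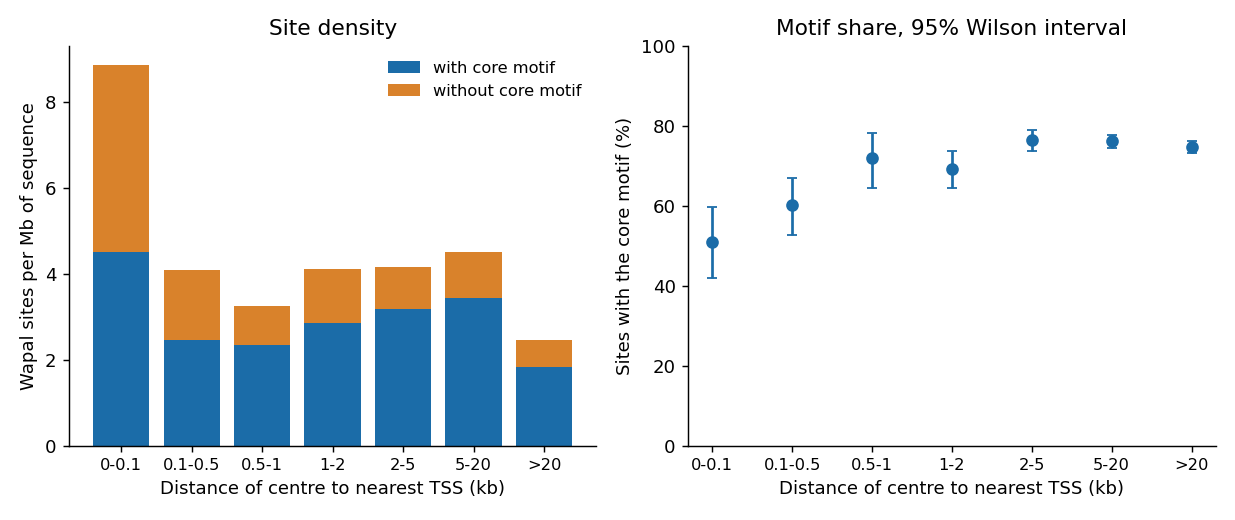
Left, Wapal sites per Mb of sequence by distance of the site's centre to the nearest TSS, with and without the core motif. Right, share of sites with the motif in the same distance bands with 95% Wilson intervals: the share was 50.9% within 0.1 kb and 76.5% from 2 to 5 kb.

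The core motif, allowing 1 mismatch, was found in 537 promoter sites (65.2%, interval 61.9 to 68.3%). Outside promoters the share was 75.5% (interval 74.5 to 76.5%), and these intervals did not overlap. In equally wide regions placed 5 kb to either side of the promoter sites the motif was found in 11.9%. The share was lowest at the TSS, with 50.9% within 100 bp (interval 41.9 to 59.7%) and 60.1% from 100 to 500 bp. Without the protocadherin sites it was 57.1% within 100 bp (60 of 105 sites, interval 47.6 to 66.2%). From 500 to 2000 bp it was 70.1% (interval 66.0 to 73.8%). An exact match stood in 185 sites (22.5%), against 0.910% of the regions 5 kb away. Of these 185 motifs, 91 (49.2%, interval 42.1 to 56.3%) were on the gene's strand. In sites upstream of the TSS it was 56 of 105 (53.3%, interval 43.8 to 62.6%). In downstream sites it was 35 of 80 (43.8%, interval 33.4 to 54.7%). The motif lay within 100 bp of the site's centre in 384 of the 537 sites. Its median distance to the centre was 36.8 bp in sites 500 to 2000 bp from a TSS and 85.5 bp in those closer than 500 bp. Matches with 2 mismatches carried little information, since 57.1% of the regions 5 kb away had a match with no more than 2.

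Base composition changed over the same distances. CpG content was given as the observed over expected CpG ratio of the central 400 bp, which is high in CpG islands, the CpG-rich stretches at many promoters. Its median was 0.54 within 100 bp of a TSS, 0.44 from 100 to 500 bp and 0.22 in both outer bands, near the 0.23 of sites outside promoters. A ratio of 0.6 or more was seen in 140 promoter sites. Of these 47.1% had the core motif (interval 39.1 to 55.4%), against 68.9% (interval 65.3 to 72.2%) of the other 684. Where CpG-rich sites had a motif, it lay a median of 183 bp from the centre, against 42.0 bp in the other sites. The CpG-rich sites were also wider, with a median of 1101 bp against 860 bp.

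Short promoter motifs were counted in the central 400 bp on both strands and compared with windows of equal length at the 22345 protein-coding gene starts that could be read. The GC box GGGCGG, bound by Sp1 and its relatives, was in 15.7% of promoter sites and 29.4% of those within 500 bp of a TSS, against 49.6% of all gene starts. The ETS motif CCGGAAG was in 5.22% of promoter sites, 12.2% of those within 500 bp and 12.9% of gene starts. Among the 129 sites within 500 bp that had no core motif, 37.2% had the GC box and 17.1% the ETS motif. The TATA box TATAAA was in 19.5% of promoter sites and 13.7% of gene starts, and CCAAT in 43.9% and 42.2%. The NRF1 element GCATGCGC was in 0.971% and 3.55%, and the ZNF143 core CCCAGNATG in 2.31% and 2.63%. The core motif in the same windows was in 52.9% of promoter sites and 5.83% of gene starts. In this fixed window 69.4% of the sites outside promoters had it. The site windows were centred on the site, need not hold the TSS and included sites at noncoding genes. The gene windows were centred on the gene's 5′ end. With that difference, the GC box was less common in the site windows than at gene starts, also within 500 bp of the TSS. These letter matches say nothing about binding of the factors.

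The score of a site is the deposited MACS value, 10 times the negative log10 of its p, and runs from 50 upwards in this list. Promoter sites had a median score of 76.59 (interval 73.42 to 79.68), lower than the 82.04 of sites outside promoters (interval 81.09 to 83.08). Extragenic sites had a median of 83.99 (interval 82.47 to 85.30). The intervals of exon sites (80.89, 73.45 to 87.52), intron sites (79.26, 77.59 to 81.09) and sites 2000 to 5000 bp from a TSS (79.78, 76.78 to 82.42) overlapped that of promoter sites. A score of at least 100 was reached by 236 promoter sites (28.6%, interval 25.7 to 31.8%), and by 35.2% of the others (interval 34.2 to 36.3%). Scores of 200 or more were seen in 37 promoter sites, or 4.49% (interval 3.28 to 6.13%), against 5.37% (interval 4.89 to 5.91%) outside promoters, where the intervals overlapped. Among the 8323 Wapal sites, none of the 10 highest was in a promoter, and 11 of the top 100 were. Of all sites, 9.90% were in promoters. Within promoters the median score was 67.8 within 100 bp of a TSS (interval 64.42 to 76.8). From 1000 to 2000 bp it was 80.4 (interval 75.67 to 84.47), and these intervals overlapped. The bands between had medians of 75.2 (100 to 500 bp) and 73.2 (500 to 1000 bp). Sites with the core motif had a median of 79.68 (interval 75.76 to 83.78) and those without it 71.83 (interval 68.82 to 75.67).

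**Figure D3:**
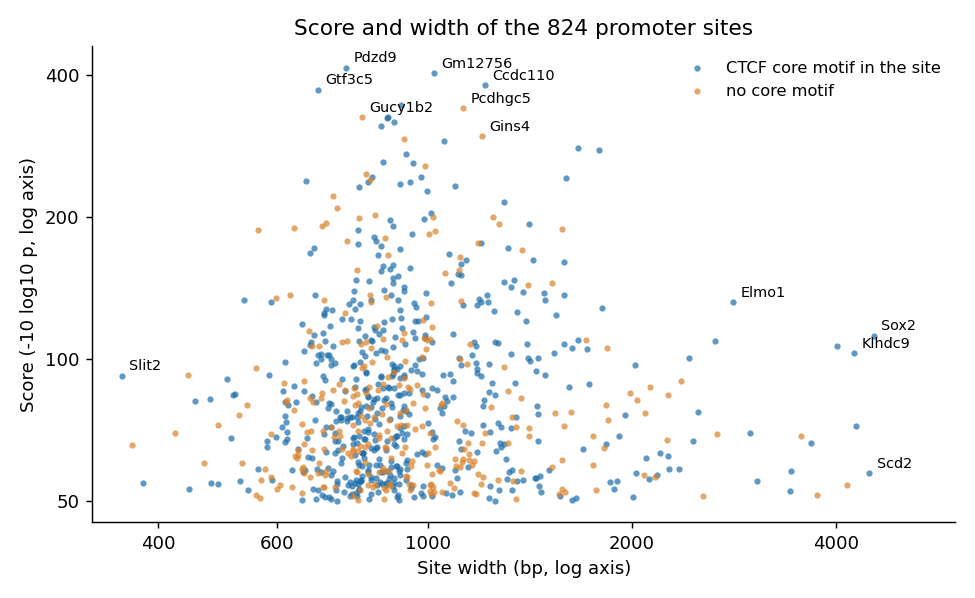
Score against width of each of the 824 promoter sites on log axes, coloured by the core motif, with some named sites labelled. The highest scores, up to 414.89 at Pdzd9, belong to sites of ordinary width, and the widest sites, up to 4551 bp at Sox2, have scores below 132.

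Pdzd9, which encodes a PDZ domain protein, had the highest-scoring promoter site, with 414.89 at a width of 758 bp. It ranked 15th by score among the 8323 Wapal sites. The site spanned chr7:127813414-127814171, and its centre was 28.5 bp upstream of the TSS. Next were the noncoding transcript Gm12756 with 403.09, 1889.5 bp downstream of its TSS, and the coiled-coil gene Ccdc110 with 380.69, 265 bp downstream in an intron. Gtf3c5, a subunit of the RNA polymerase III factor TFIIIC, had 372.07 at 1685.5 bp upstream. Mtus1, a microtubule-associated protein, had 344.94 at 1889.5 bp upstream. Pcdhgc5 followed with 339.89, Gm11656 with 325.95, and Gucy1b2, a subunit of soluble guanylate cyclase, with 325.75. Nek10, a kinase of the NIMA family, had 324.65 and Osbpl5, an oxysterol-binding protein homologue, 318.85. The remaining 5 of the first 15 were Gm17310 with 312.34, Gins4 with 296.64, Abca14 with 292.89, Sost with 290.39 and Spns1 with 280.28. Gins4 is a subunit of the GINS complex of the replication fork, and Sost encodes sclerostin, an inhibitor of Wnt signalling in bone. The Abca14 site also lay within 2000 bp of Crym, a thyroid hormone-binding protein.

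Of the 37 sites with scores of 200 or more, 27 had the core motif and 10 did not. The 10 without it were at Pcdhgc5, Gucy1b2, Gins4, Abca14, Gm16005, 1600010F14Rik, Irak2, Gm6525, Gm15453 and Gm9766, with best matches of 2 mismatches. Gins4, Abca14 and Irak2 had their centres at most 96.0 bp from a TSS and CpG ratios of 0.92, 0.75 and 0.68. Irak2, a kinase of interleukin-1 receptor signalling, had a score of 239.68 and its centre 2.0 bp after the TSS.

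Sites of score 100 or more were found directly on the TSSs of genes with varied roles. The nearest to protein-coding TSSs were Vta1, an endosomal sorting factor, with a score of 170.86 and Irak2, both centred 2.0 bp downstream of the TSS. After Abca14, at 11.5 bp upstream, came Snrpe, a core protein of the spliceosomal small nuclear ribonucleoproteins, with 102.89 at 21.5 bp downstream. Coq2, an enzyme of coenzyme Q synthesis, had 120.06 at 26.0 bp upstream. Bdh2 had 110.69 and Ccdc126 had 145.93, both 27.5 bp upstream. Pdzd9 was eighth in this order of protein-coding TSSs, followed by the collagen gene Col23a1 with 188.53 at 29.5 bp upstream and Gm216 with 148.8 at 38.5 bp downstream. The core motif was present in 7 of these 10 sites and absent from those at Irak2, Abca14 and Col23a1. Eif3f, a subunit of the translation initiation factor eIF3, had 161.95 at 66.0 bp upstream with an exact motif 193.5 bp from the centre. Pgk1, a glycolytic enzyme, had 152.49 at 180 bp upstream.

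Promoter sites were wider than the pooled other sites. Their median width was 883 bp (interval 867 to 897 bp), against 807 bp outside promoters (interval 803 to 810 bp). Exon sites had a median of 831 bp, and their interval of 809 to 873 bp overlapped that of promoter sites. Sites 2000 to 5000 bp from a TSS had 847 bp (interval 833 to 862 bp). Sites that held their TSS had a median of 1036 bp and those that did not 835.5 bp. A wider site reaches a more distant TSS by its extent alone, so this difference is in part built in. Sites of at least 2000 bp made up 4.61% of promoter sites (38 sites, interval 3.38 to 6.27%) and 1.20% of the others (90 sites, interval 0.977 to 1.47%). Of the 38, 33 held a TSS, 25 had the core motif and 6 reached a score of 100. TSS and motif were both sought over the whole width, so a wide site had more room for either. No background of equal width is given for these sites, so the 25 cannot be read like the motif share of all promoter sites.

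The widest was at Sox2, a transcription factor of the pluripotency network, and spanned 4551 bp at chr3:34546394-34550944. It had a score of 112.13, its centre was 258 bp upstream of the TSS and its exact core motif lay 1854.5 bp upstream of the centre. This site ended 1714 bp from a BirA region of score 57.16, and the part of background recovery in it was not tested. Scd2, a fatty acid desaturase, had a site of 4479 bp with a score of 57.25. Klhdc9 had a site of 4253 bp with 102.79. The site shared by 2310003C23Rik and Dido1 was 4148 bp wide with 54.07 and no core motif. Sites of at least 3058 bp were also seen at Paxip1, Malat1, Sept9, Phf17, Gadd45b, A930004D18Rik and Sgk1. Malat1, an abundant nuclear noncoding RNA, had a score of 51.57 over 3744 bp and no core motif. Elmo1 had the highest score among these wide sites, 131.84 over 2823 bp. At the other end were Slit2 with 354 bp, Gm12070 with 366 bp, Gm11808 with 380 bp, Msl3l2 with 424 bp and Olfr503 with 443 bp. The narrowest 5 had scores from 54.68 to 92.54.

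By gene type, the nearest TSS belonged to a protein-coding gene in 611 sites (74.2%, interval 71.1 to 77.0%). Processed transcripts followed with 59 sites, pseudogenes with 58 and lincRNAs with 28. Small RNA classes had 19 sites for snRNA, 17 for miRNA, 16 for snoRNA and 10 for misc_RNA, and 3 each for rRNA and IG_V_gene. Median scores were 75.42 for protein-coding genes, 86.23 for processed transcripts, 75.5 for pseudogenes and 72.41 for lincRNAs. The core motif was in 64.2% of protein-coding, 69.5% of processed transcript, 63.8% of pseudogene and 78.6% of lincRNA sites. Sites of protein-coding genes were upstream in 58.6% (358 of 611) and those of processed transcripts in 44.1% (26 of 59). The scores, motif shares and upstream shares by gene type carry no intervals, and each noncoding class rests on 59 sites or fewer. Pseudogene sites lay farther out, with a median distance of 1080 bp and a TSS inside only 9 of 58. For small RNA genes and pseudogenes the TSS is the annotated 5′ end, and whether transcription starts there was not tested.

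The highest site of each type gave an example. For miRNA genes it was the site at Mir449c with 272.54, in an exon of the annotated locus, which lay within 2000 bp of Cdc20b, Mir449a, Mir449b and Mir449c. The miR-449 family is a group of microRNAs known from multiciliated cells. For pseudogenes it was Gm16005 with 257.08 and for lincRNAs BC039771 with 173.38. A 7SK copy led the misc_RNA class with 166.27, AC159245.1 the rRNA class with 166.03, a U3 copy the snoRNA class with 144.98 and a U1 copy the snRNA class with 127.33. Trbv31 led the IG_V_gene class with 100.08. Names such as 7SK, U3 and U1 are shared by many annotated copies, and reads that align to several copies would have been lost when only unique alignments were kept.

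In all, 632 of 22350 protein-coding genes, or 2.83%, had a promoter site, and 878 of 37252 genes of any type, or 2.36%. The share was 2.60% for processed transcripts, 2.83% for lincRNAs, 2.05% for misc_RNA, 1.61% for snoRNA, 1.34% for snRNA, 1.33% for miRNA and 1.19% for pseudogenes. Gene families and lists were read against the 2.83%, and their counts are descriptions without a test.

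**Figure D4:**
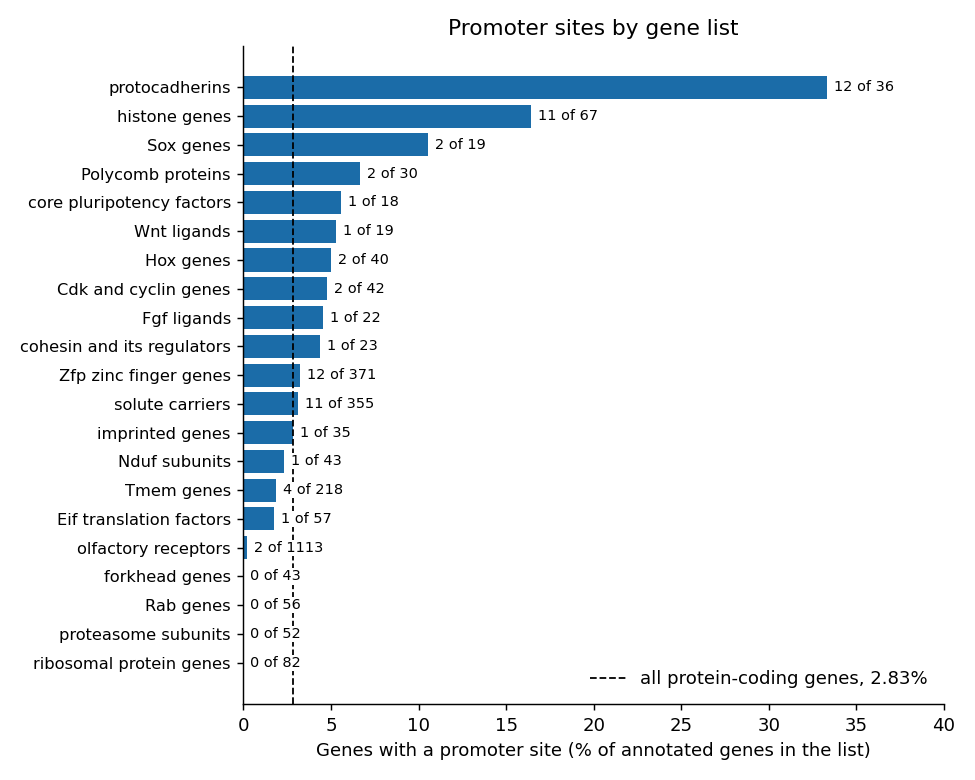
Share of the annotated protein-coding genes of each family or list that had a promoter site, with the counts beside the bars and the share of all protein-coding genes as a dashed line. Protocadherins (33.3%) and histone genes (16.4%) have the longest bars, and 4 families have none.

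Protocadherins are cell adhesion molecules of neurons, and most are encoded by the alpha, beta and gamma clusters on chromosome 18, where the variable exons have promoters of their own, many of them bound by CTCF. Of 36 annotated protein-coding protocadherin genes, 12 (33.3%) had a promoter site. With the site at the pseudogene Pcdhb20 and the one shared with Gm16882, 19 sites lay within 2000 bp of a protocadherin TSS, which was 63.3% of the 30 promoter sites on chromosome 18. Of these, 18 were in the clusters, over 837 kb, and the other was at Pcdh1. The clusters held 43 different annotated protocadherin TSSs between the outermost sites, of which 19 had a site within 2000 bp.

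The cluster sites were placed closely on the TSS. In 17 of 18 the centre lay between 146.5 bp upstream and 62.5 bp downstream of the nearest TSS of any gene. For 1 of these, the site of 79.05 at Pcdhgc5, the nearest TSS was that of Gm16882, and the centre was 155 bp downstream of the protocadherin TSS. The annotation joins the alpha transcripts under Pcdha11, and its 5 sites had scores of 82.66, 107.87, 76.22, 58.53 and 88.93 and were all upstream, from 55.5 to 146.5 bp. The 10 sites at beta genes had scores from 51.41 at Pcdhb20 to 89.87 at Pcdhb21. Pcdhb2 had 76.54, Pcdhb8 60.19, Pcdhb10 53.1, Pcdhb11 80.91, Pcdhb13 53.44, Pcdhb16 53.44, Pcdhb17 57.88 and Pcdhb19 88.5. At Pcdhgc5, which here also stands for the gamma transcripts, the scores were 58.48, 79.05 and 339.89. The highest of these 3 was centred 485.5 bp downstream of the TSS, in an exon, and was the only cluster site farther than 160 bp from a TSS.

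No protocadherin site had the core motif when 1 mismatch was allowed. The best match had 2 mismatches in 10 sites and more in 9, out of 33 promoter sites in all whose best match had more than 2. These sites were narrow, with a median width of 692 bp, and their median CpG ratio was 0.57. The nearest BirA region was at least 18.5 Mb away. Another 7 Wapal sites between the outermost cluster sites were not centred within 2000 bp of a TSS, and 1 of them had the core motif.

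**Figure D5:**
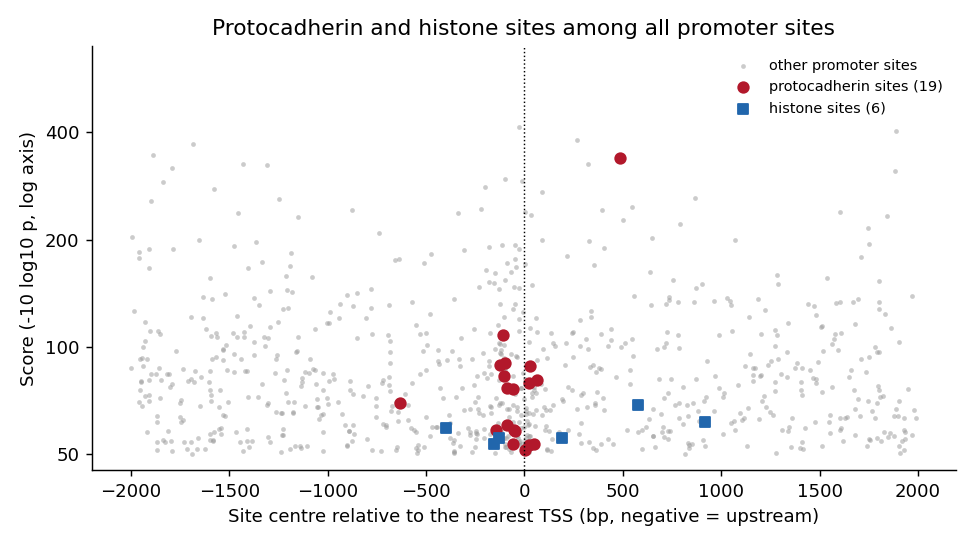
Score on a log axis against position relative to the nearest TSS for the 19 protocadherin and 6 histone promoter sites and for the other promoter sites. The protocadherin points crowd around the TSS and, except at Pcdhgc5 with 339.89, stay below 108, and the histone points lie between 53.44 and 68.83.

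Histone genes had the next highest share, with 11 of 67 genes (16.4%), but the 11 genes were reached by only 6 sites. The scores were 61.34 at Hist1h2ah and Hist1h2bk, 55.31 at Hist1h2bj, Hist1h2ag and Hist1h4i, and 53.44 at Hist1h3e. They were 59.24 at Hist1h3h, Hist1h2bl and Hist1h2ai, 68.83 at Hist1h4k and 55.31 at Hist3h2a. None of the 6 sites had the core motif. In 5 of the 6 a BirA region was close, at 206, 219, 920, 2269 and 5907 bp, and only that at Hist3h2a was far from one. Histone genes also led the removed regions, and the part of biotin background in these sites was not tested.

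Other lists of regulators had a promoter site at 1 or 2 genes each. Their shares, set against the 2.83% of all protein-coding genes, rest on those few genes. Among cohesin and its regulators it was 1 of 23 genes (4.35%), Smc3, with 69.89 at 251.5 bp upstream. Of 30 Polycomb proteins, the repressors that modify histones H2A and H3, Phc2 with 122.62 and Ezh1 with 91.63 had one (6.67%). Of 18 annotated pluripotency factors only Sox2 had a site (5.56%), and Pou5f1, Nanog, Klf4 and Esrrb had none within 2000 bp of a TSS. Of 35 imprinted genes it was Inpp5f (2.86%), with 50.39. Of 40 Hox genes, the regulators of body axis patterning, Hoxc5 with 76.88 and Hoxd12 with 73.34 had one (5%). Of 19 Wnt ligands Wnt7b had a site of 109.7 (5.26%), and of 22 Fgf ligands Fgf1 had one of 128.63 (4.55%). Among 19 Sox genes Sox6, beside Sox2, had one of 51.69 (10.5% of the Sox genes). Ccnd1, cyclin D1 of the G1 phase, had 71.68 and Ccny 58.28, of 42 Cdk and cyclin genes (4.76%). Ndufa7 of 43 Nduf subunits of complex I (2.33%) had 59.17, and Eif3f was the only one of 57 Eif translation factors (1.75%).

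The larger families lay near or below the background. Of 371 Zfp zinc finger genes 12 (3.23%) had a site, with scores up to 197.38 at Zfp618 and 193.08 at Zfp54. Zfp617 and Zfp882 shared a site of 59.01, and Zfp949, Zfp704, Zfp384, Zfp663, Zfp930, Zfp746, Zfp52 and Zfp672 made up the rest. Of 355 solute carriers, 11 (3.10%) had one, from 50.86 at Slc48a1 to 108.9 at Slc10a2, and 9 of these 11 sites had the core motif. The others were Slc38a10, Slc6a19, Slc16a11, Slc43a2, Slc13a3, Slc35c2, Slc25a45, Slc44a1 and Slc6a17. Of 218 Tmem genes, Tmem163, Tmem194, Tmem167b and Tmem211 had a site (1.83%). Olfactory receptors had 2 of 1113 (0.180%), Olfr15 and Olfr503. Ribosomal protein genes (82), Rab genes (56), proteasome subunits (52) and forkhead genes (43) had none.

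Among small RNA genes, 11 of 539 Mir genes (2.04%) were reached by 7 sites, and 4 of 99 Snor genes (4.04%) had one. The other Mir genes were Mir466i with 116.8, Mir759 with 109.34, Mir760 with 87.36, Mir615, annotated in 2 copies, with 76.88, Mir24-2 and Mir27a with 72.11 and Mir466f-4 with 62.3. The 4 Snor sites were wide and downstream of the annotated 5′ end, at Snora33 (1990 bp), Snord22 (1831 bp), Snora41 (1953 bp) and Snord12 (2984 bp). Their scores were between 69.56 and 84.84.

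Most promoter sites belonged to 1 gene. There were 759 sites with 1 gene within 2000 bp, 57 with 2, 6 with 3 and 2 with 4. After the Mir449c site, the sites with most genes were at AC087117.3 with 64.76, A930015D03Rik with 90.19, Snord22 with 79.77 and Hoxc5. Divergent pairs of protein-coding genes, with starts at most 1000 bp apart, had 11 sites. Only that at Acbd4 and Plcd3 had the core motif. Among those without it were the histone sites at Hist1h2ah, Hist1h3h and Hist1h2bj, 920, 219 and 206 bp from a BirA region. The highest of the 11 were at Dusp3 with 154.38, a phosphatase gene, and at Rg9mtd2 with 136.66, which was shared with Mttp, the microsomal triglyceride transfer protein.

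More than 1 promoter site was seen at 17 genes, 14 of them protein-coding. Beside Pcdha11 and Pcdhgc5 these were Azi2, Bdh2, Camta1, Cspp1, Dnahc17, Dnajc5b, Fancc, Nwd1, Papd5, Pld1, Utrn and Vwf. In Bdh2 both sites had scores above 100, with 110.69 and 127.6. In Cspp1, a protein of centrosome and cilia, they were 214.96 and 53.06 at different TSSs. Fancc, of the Fanconi anaemia repair pathway, had sites of 93.9 and 92.36 on either side of its TSS. The noncoding genes were Gm16133, which overlaps Fancc, Gm16230 and a U8 copy.

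The share of sites in promoters differed between chromosomes, from 5.10% on chromosome 12 to 18.8% on chromosome 11, which had 96 promoter sites. These shares were not set against the number of annotated TSSs on each chromosome, on which they depend. By genes, 4.26% of the protein-coding genes of chromosome 18 and 4.17% of those of chromosome 11 had a promoter site, against 1.07% on X. Of the 22 such genes on chromosome 18, 12 were protocadherins. The X chromosome had 14 promoter sites, the highest at Pgk1, and others at Flna, an actin-binding protein, with 107.72, and Porcn, an enzyme of Wnt secretion, with 60.44.

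At the edge of the promoter window, the last sites inside were at Mir760 (1997 bp from the TSS), Nfil3 (1993.5 bp) and Xrcc6 (1991.5 bp). Those just outside were at Cox6a2 (2003.5 bp), Gm9790 (2004.5 bp) and Trbv14 (2010 bp). Scores inside were 87.36, 203.81 and 63.13, and those outside were 175.37, 107.3 and 68.33, so scores on the 2 sides of the limit overlapped.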

How the data were processed

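Biotin ChIP-seq of FB Wapal, BirA-only and input ESC samples was used. Per the labels and the study's methods, the authors used Bowtie for unique alignments to mm9 and MACS 1.4.2 to call regions over input. The rule that joined both clones is not given in the sources used here. The deposited score of each region is 10 times the negative log10 of the MACS p-value, not normalized between lists, so scores were compared only within the Wapal list.

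Regions sharing a base with a BirA region were removed, and centres were assigned to the nearest TSS of GENCODE M1, with ties given to protein-coding genes. The CTCF core motif (12 bases, at most 1 mismatch) was searched in the mm9 (NCBIM37) sequence. Base composition was taken from the central 400 bp. Intervals are 95% Wilson intervals for shares and order-statistic intervals for medians, and cover counting error only. Sites are not replicates, so no tests were made. Positions, gaps and motif matches were tested on simulated data. Named sites were the 15 highest, the 5 widest and narrowest, the 10 nearest to a protein-coding TSS with a score of at least 100, the highest of each gene type, the 3 just inside and outside 2000 bp, genes with 2 or more sites, the 5 sites with most genes, and all sites of the listed families, except 1 wide site that is not reported here. Others were named after their values were seen. The members and lists were chosen with earlier results of these data known. Python 3.11.15, numpy 2.4.6, scipy 1.17.1, pandas 2.3.3 and matplotlib 3.10.9 were used.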

Additional observations from a re-analysis of the deposited data

How the results depend on the processing

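Of 101 values recomputed under other settings, 68 stayed within 1.5 times the count or within the 95% interval reported, and 33 moved. With the minimum score at 100, sites numbered 236 (8.20% of sites, 0.792% of protein-coding genes), with a median score of 133.07, a width of 912 bp and the motif in 72.5%. Within 1000 bp of a TSS they numbered 456 (5.48% and 1.56%), with medians of 72.6, 910.5 bp and 292 bp from the TSS and the motif in 61.8%. Within 5000 bp they numbered 1759 (21.1% and 6.29%), with 863 bp, 2151.5 bp and 71.2%. Without removal of BirA regions the shares were 10.7% and 3.06%, with the motif in 61.6%. With transcripts of protein-coding genes only, 7.52% of sites were in promoters. With 1 TSS per gene these shares were 6.85% and 1.73%, the protein-coding share was 62.6% and the motif share 61.1%. With any base of the site within 2000 bp, they were 11.8% and 3.31% at a median distance of 1105 bp. The motif share was 22.5% for exact matches, 96.0% with 2 mismatches and 45.5% within 100 bp of the centre. Removing regions within 1000 bp of a BirA region, or leaving out protocadherin or histone sites, moved none of the 9 results out of its range. The protocadherin and histone settings were chosen after seeing the data. Keeping autosomes and X could not change any value, since no site lay elsewhere, yet its values are counted among the 68. The share of protein-coding genes likewise could not change when only transcripts of protein-coding genes were used. The share upstream of the TSS was 54.1% or more in all settings run. In each of the first 3 settings the lower or higher counts follow from the setting itself. Leaving out a clone was not possible, since both were joined in 1 list. No paired analysis was possible because no test between groups was made. Depth per site was unknown, and small families rest on few genes.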
